A study of Mus musculus with 17 samples.

Results

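The 49 genes described here are the DNA replication and S-phase genes of mouse pancreatic islets, the small endocrine organs of the pancreas that hold the insulin-producing β cells. They were listed by name for their known function, with earlier results of these data already known. They comprise 10 genes of origin licensing, 6 of helicase activation, 12 of the polymerases, primase, clamp and clamp loader, 4 of single-strand binding and Okazaki fragment joining, 4 of deoxynucleotide supply, 4 of chromatin and histone supply, 5 E2F and cyclin E genes, and 4 of repair and checkpoint. Each of the 49 matched 1 row in the table of 78239 gene identifiers for the *Pax4* R192H mice and 1 row in the table of 73212 identifiers for the *Pax4* βiKO mice.

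Bulk RNA-seq was performed on islets from 17 male mice in 6 groups, and the libraries were prepared from total RNA with a stranded kit. In the first table, wildtype mice and littermates homozygous for the knock-in allele (*Pax4* R192H), both on the C57BL6/N background, were 12 weeks old on a standard chow diet (SCD) or 16 weeks old after 4 weeks of a high-fat diet (HFD), with 3 mice in each of the 4 groups. The knock-in carries R200H in mouse *Pax4*, the counterpart of human R192H. Diet and age changed together between the SCD and HFD groups and cannot be told apart. In the second table, 3 *Pax4* βiKO mice, which carry floxed *Pax4* alleles and the tamoxifen-inducible *Pdx1-CreERT2* transgene, were compared with 2 control mice that carry the floxed alleles without the transgene. Both groups received tamoxifen between 7 and 9 weeks of age and 8 weeks of HFD, and were 20 weeks old. The Cre transgene was present in the βiKO mice only, so its presence and the loss of *Pax4* cannot be told apart, and the *Pdx1* promoter that drives it is active in β cells but not exclusive to them.

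Before S phase, the origin recognition complex, CDC6 and CDT1 load the MCM2-7 helicase onto DNA, which licenses each origin to fire once. CDC45 and the GINS complex then activate the helicase, and polymerases, primase, the PCNA clamp and its loader copy the strands while ribonucleotide reductase and thymidylate synthase supply the building blocks. Most of these genes are transcribed by E2F factors once cyclin-dependent kinases, that of cyclin E among them, have inactivated the retinoblastoma protein. In adult islets few cells are cycling, and obesity or a high-fat diet is known to raise β cell replication in mice. In the paper, β cells stained for the proliferation protein Ki67 became more frequent early in HFD feeding in wildtype mice, but not in *Pax4* R192H mice. That was a count of stained β cells, whereas the values here are RNA of whole islets.

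To show the regulatory sequence that many of these genes share, the promoters of RefSeq (GRCm38.p6) were searched on both strands, from 250 bases before to 50 bases after the start of transcription. The letters TTTCCCGC, TTTGGCGC, TTTCGCGC or TTTGCCGC, which are versions of the E2F motif, were present in 17 of 47 promoters of the 41 listed genes that had an entry, 36.2%, against 2.26% of all 32851 promoters. CCAAT, the motif bound by NF-Y, was in 28 of the 47, 59.6%, against 37.4% of all promoters. The CHR letters TTTGAA or TTCGAA, found in many late cell cycle promoters, were in 17.0% of the 47 and 19.2% of all. Matches of different motifs can overlap, and a match describes letters and not a bound site. No E2F letters were found in the promoters of *Brca1*, *Cdc45*, *Mcm2*, *Mcm10*, *Pcna*, *Rpa2*, *Rrm1*, *Rrm2* and *Tyms*, whose values are also given in the results. The 5 promoters below hold E2F letters and belong to genes whose values are given in the results. They run 5′ to 3′ on the strand of the gene, and capitals mark E2F and CCAAT letters.
Mcm5, chr8:75109259-75109558, plus strand: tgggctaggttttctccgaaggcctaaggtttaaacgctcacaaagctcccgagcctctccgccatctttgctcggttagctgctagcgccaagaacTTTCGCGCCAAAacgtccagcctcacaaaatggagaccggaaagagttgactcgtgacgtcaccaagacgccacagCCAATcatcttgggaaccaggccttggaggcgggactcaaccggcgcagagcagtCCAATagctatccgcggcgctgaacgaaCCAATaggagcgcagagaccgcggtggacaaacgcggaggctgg
Mcm6, chr1:128359656-128359955, minus strand: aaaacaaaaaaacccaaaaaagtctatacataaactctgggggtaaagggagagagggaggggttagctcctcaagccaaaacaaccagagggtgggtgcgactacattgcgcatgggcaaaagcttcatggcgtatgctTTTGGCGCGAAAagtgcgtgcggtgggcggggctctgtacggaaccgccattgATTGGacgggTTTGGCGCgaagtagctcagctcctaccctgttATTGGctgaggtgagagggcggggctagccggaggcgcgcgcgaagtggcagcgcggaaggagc
Mcm7, chr5:138171834-138172133, minus strand: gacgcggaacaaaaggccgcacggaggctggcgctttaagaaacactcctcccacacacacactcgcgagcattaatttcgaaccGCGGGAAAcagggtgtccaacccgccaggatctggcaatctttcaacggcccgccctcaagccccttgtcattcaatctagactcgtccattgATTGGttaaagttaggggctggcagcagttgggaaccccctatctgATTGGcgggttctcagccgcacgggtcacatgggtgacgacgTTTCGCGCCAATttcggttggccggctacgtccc
Cdc6, chr11:98907901-98908200, plus strand: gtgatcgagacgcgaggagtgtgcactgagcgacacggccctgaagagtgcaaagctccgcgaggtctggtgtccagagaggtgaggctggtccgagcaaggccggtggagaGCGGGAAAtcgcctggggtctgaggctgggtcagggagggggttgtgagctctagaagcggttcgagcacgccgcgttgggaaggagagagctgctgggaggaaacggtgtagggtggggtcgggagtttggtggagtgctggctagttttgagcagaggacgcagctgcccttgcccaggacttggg
Clspn, chr4:126556730-126557029, plus strand: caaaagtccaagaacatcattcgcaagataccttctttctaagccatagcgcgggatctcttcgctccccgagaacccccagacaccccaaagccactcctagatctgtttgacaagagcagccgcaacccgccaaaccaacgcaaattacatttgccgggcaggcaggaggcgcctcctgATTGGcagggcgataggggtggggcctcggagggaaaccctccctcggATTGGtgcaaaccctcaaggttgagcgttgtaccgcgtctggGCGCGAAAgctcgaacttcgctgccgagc
In the *Mcm5* and *Mcm6* promoters 2 E2F matches overlapped, starting 153 and 149 bases before the *Mcm5* start and 110 and 106 bases before the *Mcm6* start. In the *Mcm7* promoter the E2F letters from base 17 after the start ran into a CCAAT match.

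The libraries held 24268157 to 42679645 expected counts in the first table and 28618835 to 31887537 in the second, so that 3 counts, the floor used here, corresponded to between 7.03e-06% and 1.24e-05% of a library. *Pax4* itself was listed at 0 counts in all 12 libraries of the first table and all 5 of the second, so its level could not check the genotype labels. Islet identity was clear from the insulin genes, with *Ins1* at 11226 to 34349 CPM (counts per 1000000 counts of the normalised library) and *Ins2* at 14506 to 46000 CPM in the first table. The DNA replication genes were low against this background, with a median of the group means of 2.82 CPM in SCD-fed wildtype islets, and 11 of the 49 were under 1 CPM there. Per kilobase of exon, the highest level in SCD-fed wildtype islets was that of *Pcna*, the sliding clamp of the polymerases, at 11.7 CPM per kilobase, and the lowest was that of *E2f8*, an atypical E2F repressor, at 0.0206 CPM per kilobase. All 49 passed the filter on low counts in both tables, although *Orc1* and *E2f8* would not have passed it in the first table without the HFD-fed *Pax4* R192H mice. In 40 of the 49, all 12 libraries of the first table had 10 or more counts.

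Higher levels of these genes were found in HFD-fed *Pax4* R192H islets. For 32 of the 49 genes, 65.3%, all 3 HFD-fed *Pax4* R192H mice were above the other 9 mice of the table, against 8.99% of all 19137 genes tested. *Orc1* and *E2f8*, which passed the filter on low counts only through these 3 mice, are counted in the 49. The mean log2 CPM of the 49 genes was 2.37, 2.56 and 2.85 in these 3 mice. It was 1.59, 1.18 and 1.61 in SCD-fed wildtype, 1.31, 1.45 and 1.46 in SCD-fed *Pax4* R192H, and 1.69, 1.78 and 1.25 in HFD-fed wildtype mice. The 3 HFD-fed *Pax4* R192H mice therefore did not overlap the other 9, which overlapped each other. Replicate 3 of the HFD-fed *Pax4* R192H mice had the highest value of the 12 mice for 39 of the genes. In bulk tissue, more cells in S phase and more RNA of these genes per cell cannot be told apart.

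**Figure D1:**
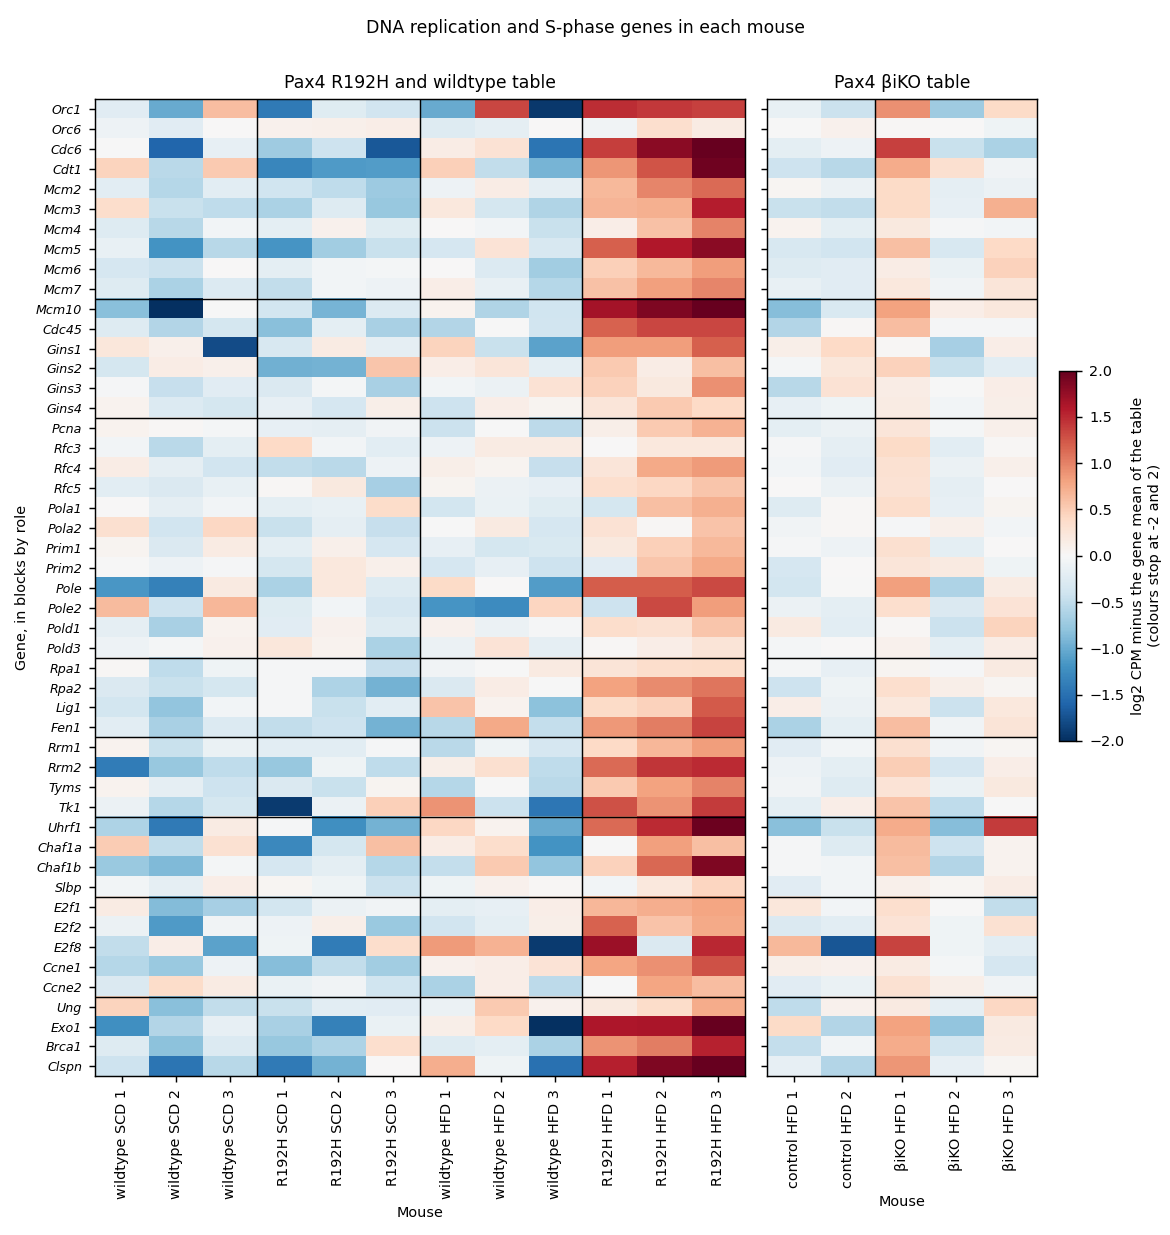
Heat map of the 49 genes (rows, in blocks by role) in each mouse (columns), as log2 CPM minus the mean of the gene over the mice of its table, with colours that stop at -2 and 2. The 3 columns of HFD-fed *Pax4* R192H mice are above the gene mean for most rows, and in the βiKO table replicate 1 has the most rows above it.

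Whether the variant altered these genes without dietary stress was asked on SCD. None of the 49 was called between the genotypes on this diet, where a call required an edgeR adjusted p below 0.05 and a log2 fold change of at least 0.5 in size, and 0 of all 19137 genes were called. DESeq2 called 0 of the 49 as well, and 23 of 39752 genes in all. The genes lay on both sides of 0, with 24 of 49 higher in *Pax4* R192H against 49.3% of all genes, and a median log2 fold change of -0.05 against -0.00 for all genes. Without replicate 2 of the wildtype mice 14 of 49 were higher, against 51.9% of all genes. At an unadjusted p under 0.05 there was 1 gene, *Cdt1*, against 3.29% of all genes. *Cdt1*, the licensing factor that brings the helicase to origins, was at 0.909, 0.429 and 0.965 CPM in wildtype and at 0.229, 0.263 and 0.267 CPM in *Pax4* R192H mice. All 3 *Pax4* R192H mice were below all 3 wildtype mice, and its log2 fold change was -1.59 ± 0.53 (SE, n = 3 per group) with an edgeR adjusted p of 1. The lowest values after it were *Orc1* at -0.83 ± 1.16 and *Pole2* at -0.62 ± 0.58, and the highest were *Rrm2* at 0.42 ± 0.30, *Pole* at 0.42 ± 0.46 and *Rfc3* at 0.33 ± 0.21, all on the log2 scale with an adjusted p of 1. Immune cell markers differed between these groups, summing to 168.5 to 264.3 CPM in wildtype and 108.9 to 128.5 CPM in *Pax4* R192H mice, with 13 of 13 tested markers lower in *Pax4* R192H. With the immune marker level as a covariate 11 of the 49 genes were higher in *Pax4* R192H, with a median of -0.28, 4 genes had an unadjusted p under 0.05 and 0 were called. Over all genes 48.6% were higher with this covariate, and 930 had such a p against 630 without it.

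On HFD, all 49 genes, *Orc1* and *E2f8* among them, had a higher estimate in *Pax4* R192H than in wildtype islets, against 48.6% of all genes tested. Of these, 12 were called higher, where 1.46% of all genes were called higher, and 0 were called lower, where 0.82% of all genes were. With the level of pancreatic acinar markers, which were higher in the same mice, as a covariate, 0 of the 49 and 1 of all 19137 genes were called, against 437 of all genes without it, and the median of the 49 was 0.98. Without the covariate the median log2 fold change was 0.95, against -0.01 for all genes, and the values ran from 0.07 for *Rfc3* to 2.34 for *Mcm10*. For 32 genes the 3 *Pax4* R192H mice were all above the 3 wildtype mice, against 13.0% of all genes, and for 0 genes they were all below, against 9.89%. The count of calls was 3 without replicate 1 and 1 without replicate 3 of the wildtype mice, and 2 without replicate 2 and 2 without replicate 3 of the *Pax4* R192H mice. Over all genes the count went from 437 to 140 and 93 without those wildtype mice and to 110 and 158 without those *Pax4* R192H mice. DESeq2 called 26 of the 49 at the same thresholds and 918 of 39752 genes in all, 616 of them higher.

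**Figure D2:**
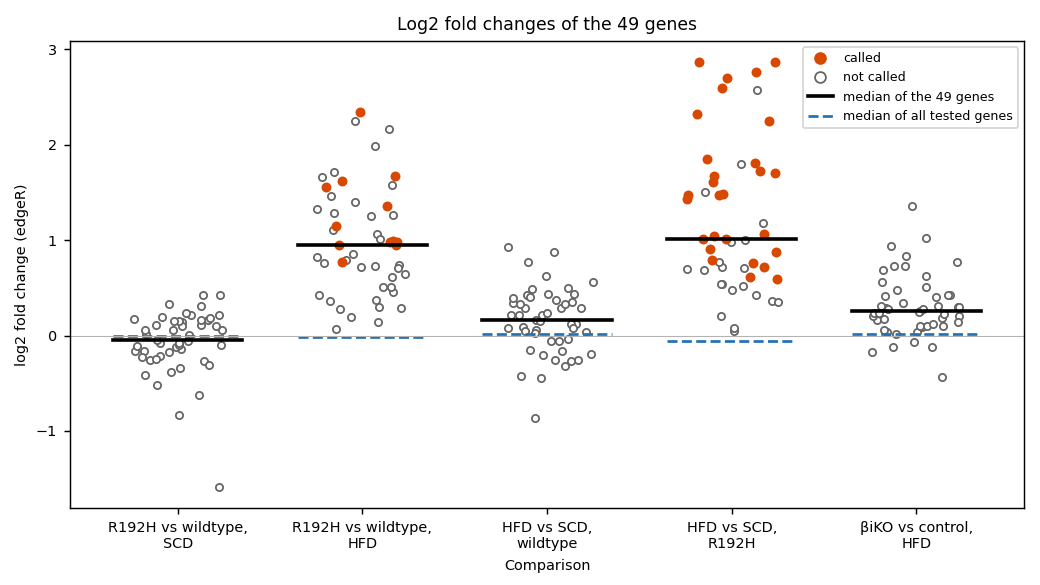
Log2 fold changes of the 49 genes (points) in 5 comparisons, with called genes filled, the median of the 49 as a solid line and the median of all tested genes as a dashed line. In HFD-fed *Pax4* R192H islets all 49 points are above 0 against either reference group, whereas the points of the SCD comparison lie on both sides of 0.

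Among the licensing genes, 4 of 10 were called higher on HFD, and all 4 encode subunits of the MCM2-7 helicase. *Mcm5* was at 3.6, 5.49 and 3.64 CPM in HFD-fed wildtype and at 10.5, 13.9 and 16.0 CPM in HFD-fed *Pax4* R192H mice. The groups did not overlap, and its log2 fold change was 1.67 ± 0.28 (SE, n = 3 per group) with an edgeR adjusted p of 0.0109. *Mcm2* was at 8.68, 10.4 and 8.22 CPM in wildtype and at 14.7, 18.4 and 20.7 CPM in *Pax4* R192H mice, a log2 fold change of 0.98 ± 0.17 with an adjusted p of 0.0126. For *Mcm6* the values were 11.1, 9.07 and 6.77 CPM against 15.3, 17.2 and 19.5 CPM, and for *Mcm7* they were 8.63, 7.06 and 5.26 CPM against 11.8, 13.9 and 15.5 CPM. These 2 rose by 0.95 ± 0.19 and 0.98 ± 0.20 on the log2 scale, with adjusted p of 0.0211 and 0.0273. The other helicase subunits were not called, with *Mcm3* at 1.28 ± 0.33 (adjusted p = 0.0608) and *Mcm4* at 0.76 ± 0.22 (adjusted p = 0.0902).

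The loading factors of the helicase were not called. *Cdc6*, the ATPase that loads the helicase, was at 1.39, 1.53 and 0.416 CPM in HFD-fed wildtype and at 3.36, 4.53 and 7.00 CPM in HFD-fed *Pax4* R192H mice. The groups did not overlap, and the log2 fold change of 2.16 ± 0.53 had an edgeR adjusted p of 0.053, just outside the threshold. *Cdt1* was at 0.932, 0.443 and 0.312 CPM against 1.25, 1.64 and 2.68 CPM, with a log2 fold change of 1.71 ± 0.50 and an adjusted p of 0.0903. *Cdt1* lies within the annotated locus of *Gm20388* on the same strand, so some of its reads may belong to that row. *Orc1*, the largest subunit of the origin recognition complex, had 0 to 17 counts per library and a log2 fold change of 1.58 ± 1.07 (adjusted p = 0.522). *Orc6*, its smallest subunit, was at 9.99 to 12.0 CPM in wildtype and 11.4 to 15.1 CPM in *Pax4* R192H mice, and these ranges overlapped.

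Of the helicase activation genes, *Cdc45* and *Mcm10* were called on HFD and the 4 GINS genes were not. *Cdc45*, which joins the helicase at firing, was at 1.84, 2.80 and 2.13 CPM in HFD-fed wildtype and at 6.44, 7.13 and 7.18 CPM in HFD-fed *Pax4* R192H mice. This was the lowest adjusted p of the 49 in the comparison, 0.00509 by edgeR, with a log2 fold change of 1.62 ± 0.24. The SCD-fed mice of both genotypes were between 1.55 and 2.45 CPM, close to HFD-fed wildtype. *Mcm10*, a factor needed for helicase activation, was at 0.746, 0.443 and 0.520 CPM against 2.36, 2.73 and 3.64 CPM, a log2 fold change of 2.34 ± 0.54 with an adjusted p of 0.0418. *Gins2* was at 6.13, 6.61 and 4.84 CPM against 8.04, 6.16 and 8.51 CPM, so the groups overlapped (0.37 ± 0.34, adjusted p = 0.66).

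Of the 12 polymerase, primase, clamp and clamp loader genes, only *Pcna* was called on HFD, and the median log2 fold change of the 12 was 0.68. *Pcna* was at 20.7, 27.6 and 19.4 CPM in HFD-fed wildtype and at 30.2, 40.2 and 45.0 CPM in HFD-fed *Pax4* R192H mice, without overlap. Its log2 fold change was 0.77 ± 0.16 with an edgeR adjusted p of 0.027, and it has annotated pseudogenes with which reads may be shared. *Pole*, the catalytic subunit of the leading-strand polymerase, was at 2.18, 1.67 and 0.729 CPM against 3.93, 3.90 and 4.22 CPM (1.40 ± 0.45, adjusted p = 0.129). *Prim1*, the catalytic primase subunit, was at 5.33, 4.67 and 4.84 CPM against 6.86, 8.30 and 9.34 CPM (0.72 ± 0.19, adjusted p = 0.0624). The smallest estimates of the 49 were those of *Rfc3*, a clamp loader subunit, at 0.07 ± 0.20 and *Pold3*, an accessory subunit of polymerase delta, at 0.14 ± 0.20, and the values of both overlapped between the groups.

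Among the 4 genes of single-strand binding and Okazaki fragment joining, *Rpa2* was called. *Rpa2*, the middle subunit of replication protein A, was at 4.53, 6.14 and 5.54 CPM in HFD-fed wildtype and at 9.80, 10.7 and 11.8 CPM in HFD-fed *Pax4* R192H mice (1.00 ± 0.22, edgeR adjusted p = 0.0332). *Fen1*, the flap nuclease, was at 7.38, 18.5 and 7.86 CPM against 20.0, 22.3 and 28.0 CPM (1.07 ± 0.30, adjusted p = 0.0814). Replicate 2 of the wildtype mice was more than 10 CPM above the other two. *Lig1*, the ligase that seals the fragments, was at 4.00, 2.80 and 1.48 CPM against 3.5, 3.69 and 6.32 CPM, which overlapped (0.71 ± 0.35, adjusted p = 0.349).

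Of the 4 genes of deoxynucleotide supply, 3 were called. *Rrm2*, the regulated subunit of ribonucleotide reductase, was at 2.80, 3.24 and 1.80 CPM in HFD-fed wildtype and at 5.68, 7.04 and 7.33 CPM in HFD-fed *Pax4* R192H mice (1.36 ± 0.29, edgeR adjusted p = 0.0304). *Rrm1*, the large subunit, was at 10.9, 14.9 and 12.6 CPM against 20.9, 25 and 28.3 CPM (0.95 ± 0.17, adjusted p = 0.013). *Tyms*, thymidylate synthase, was at 3.22, 4.81 and 3.30 CPM against 6.97, 8.47 and 9.62 CPM (1.15 ± 0.22, adjusted p = 0.0211), and it too has an annotated pseudogene. None of these 3 genes overlapped between the groups. *Tk1*, the salvage enzyme thymidine kinase, was at 1.97, 0.75 and 0.338 CPM against 2.57, 1.97 and 2.80 CPM (1.26 ± 0.61, adjusted p = 0.342). Replicate 1 of the wildtype mice reached the lowest *Pax4* R192H value.

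No gene of chromatin and histone supply was called on HFD. *Uhrf1*, which couples DNA methylation to replication, was at 2.26, 1.77 and 0.807 CPM in HFD-fed wildtype and at 3.75, 4.82 and 6.69 CPM in HFD-fed *Pax4* R192H mice (1.66 ± 0.47, edgeR adjusted p = 0.0863). *Chaf1b*, a subunit of the histone chaperone CAF-1, was at 0.986, 2.01 and 0.781 CPM against 1.93, 3.14 and 5.24 CPM (1.46 ± 0.44, adjusted p = 0.101). *Slbp*, which binds histone mRNA, was at 14.8, 16.5 and 15.8 CPM against 14.9, 18 and 21.0 CPM (0.20 ± 0.16, adjusted p = 0.606). The first of these genes did not overlap between the groups, and the other two did.

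The E2F and cyclin E genes had a median log2 fold change of 0.86 on HFD and 0 calls. *E2f1*, an activator of S-phase transcription, was at 5.67, 5.76 and 7.08 CPM in HFD-fed wildtype and at 10.3, 10.7 and 11.2 CPM in HFD-fed *Pax4* R192H mice (0.80 ± 0.23, edgeR adjusted p = 0.0928). *Ccne1*, cyclin E1, was at 1.94, 2.01 and 2.24 CPM against 3.22, 3.52 and 4.5 CPM (0.86 ± 0.26, adjusted p = 0.107). Both were without overlap. *Ccne2*, cyclin E2, was at 4.63, 7.91 and 5.02 CPM against 7.22, 12.6 and 11.2 CPM, with overlap (0.82 ± 0.26, adjusted p = 0.114).

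Of the repair and checkpoint genes *Brca1* was called. *Brca1*, which acts in homologous recombination and at stalled forks, was at 2.82, 2.97 and 2.16 CPM in HFD-fed wildtype and at 6.40, 6.92 and 10.02 CPM in HFD-fed *Pax4* R192H mice (1.56 ± 0.31, edgeR adjusted p = 0.0223). *Clspn*, the adaptor of the replication checkpoint, was at 1.54, 0.852 and 0.286 CPM against 2.79, 3.48 and 4.41 CPM (1.99 ± 0.55, adjusted p = 0.0768). *Exo1*, a 5′ to 3′ exonuclease, was at 0.693, 0.852 and 0.104 CPM against 2.07, 2.10 and 3.64 CPM (2.25 ± 0.62, adjusted p = 0.0747). For all 3 genes the groups did not overlap. *Ung*, which removes uracil from DNA, was at 1.49, 2.35 and 1.72 CPM against 1.86, 2.10 and 2.74 CPM, with overlap (0.27 ± 0.35, adjusted p = 0.774).

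**Figure D3:**
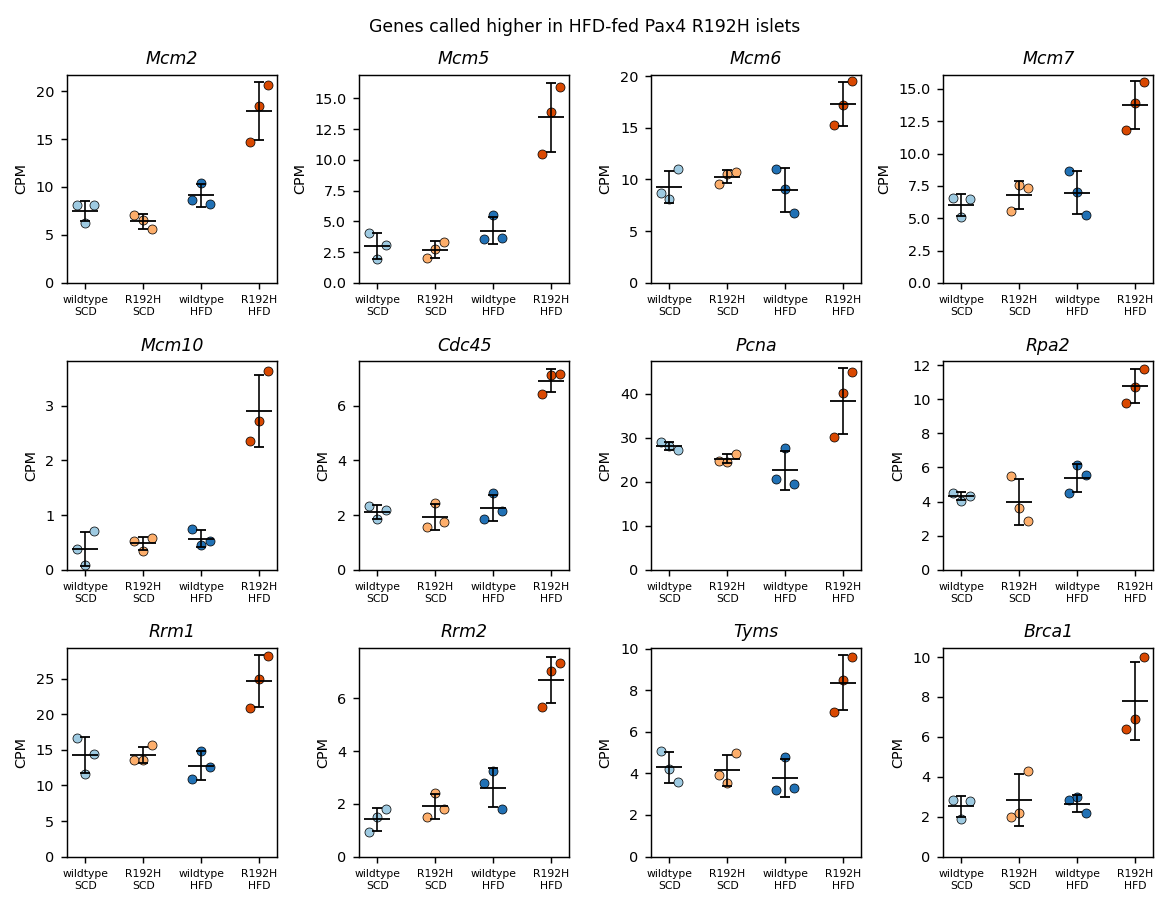
CPM of the 12 genes called higher in HFD-fed *Pax4* R192H than in HFD-fed wildtype islets, with 1 point per mouse, the mean as a bar and the SD as error bars (n = 3 per group). The 3 HFD-fed *Pax4* R192H mice are above the 3 HFD-fed wildtype mice in every panel, as with *Cdc45* at 6.44 to 7.18 CPM against 1.84 to 2.80 CPM.

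The 18 acinar markers summed to 33110 to 92600 CPM in HFD-fed *Pax4* R192H and 15110 to 22500 CPM in HFD-fed wildtype mice, and 18 of 18 had a higher estimate, with 4 called and a median log2 fold change of 1.52. No acinar marker was at 0 in any library. The duct markers summed to 268.3 to 275.8 CPM in HFD-fed *Pax4* R192H and 154.0 to 201.2 CPM in HFD-fed wildtype mice. The β cell markers summed to 96810 to 107600 CPM and 63500 to 91630 CPM in the same order. Of these 8 markers 3 had a higher estimate, and *Slc2a2* was called lower (-1.28 ± 0.19, edgeR adjusted p = 0.00589). The part of the duct and β cell markers was not tested.

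Genes of the same pathway outside the list had a smaller median, and both lists were chosen with earlier results of these data known. Of 49 tested other replication genes, 38 had a higher estimate on HFD in *Pax4* R192H, 4 were called higher and 1 lower, with a median log2 fold change of 0.32. The 4 were *Asf1b*, a histone chaperone (1.59 ± 0.37, edgeR adjusted p = 0.0416), *Mcm8* (1.34 ± 0.29, adjusted p = 0.0336), *Rnaseh2c*, an RNase H2 subunit (1.04 ± 0.22, adjusted p = 0.031), and *Wdhd1*, a replisome scaffold (0.76 ± 0.18, adjusted p = 0.0474). *Rrm2b*, the p53-induced reductase subunit used outside S phase, fell by 0.61 on the log2 scale (adjusted p = 0.014). Genes of G2 and mitosis, the phases after replication, had a median of 1.62, with 25 of 25 higher and 7 called. *Mki67* was at 21.3, 12.0 and 3.56 CPM in HFD-fed wildtype and at 57.2, 32.1 and 38.7 CPM in HFD-fed *Pax4* R192H mice (1.79 ± 0.49, adjusted p = 0.0747). *Top2a* was at 18.3, 24.9 and 5.18 CPM against 48.6, 41.5 and 57.9 CPM (1.62 ± 0.45, adjusted p = 0.0766). Replicate 3 of the wildtype mice was the lowest of the 12 mice for both.

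**Figure D4:**
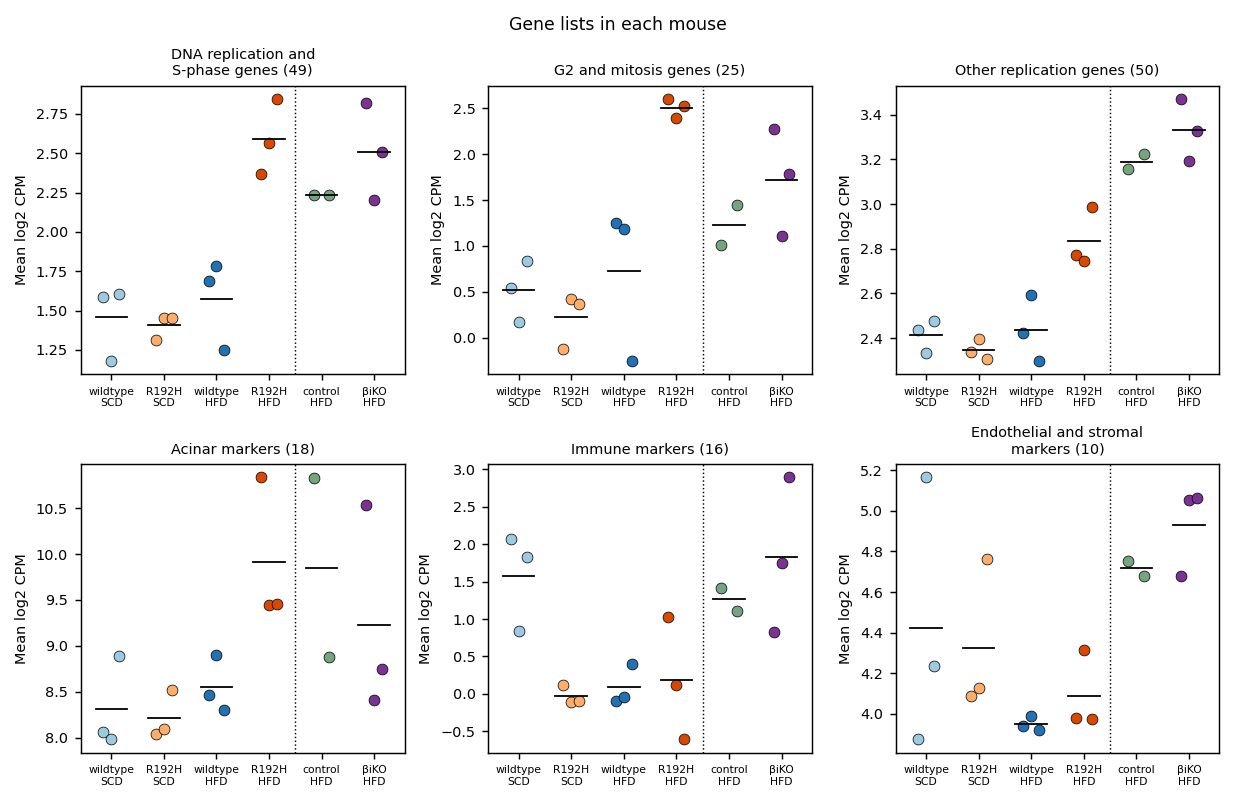
Mean log2 CPM of 6 gene lists in each mouse (points) with the group mean as a bar, and a dotted line between the 2 tables, which were normalised separately and are not compared in level. The HFD-fed *Pax4* R192H mice stand above the other 3 groups of their table for the replication, mitosis and acinar lists and overlap them for the immune and the endothelial and stromal lists.

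Whether the effect of genotype differed between the diets was tested with the interaction term. It was positive for 48 of the 49 genes, against 49.2% of all genes, with a median of 0.95 on the log2 scale, and 25 of the 49 had an unadjusted p under 0.05 against 11.2% of all genes. None of the 49 was called, where 0.131% of all genes were called. DESeq2 called 7 of the 49 and 314 of 39752 genes in all. The lowest adjusted p were those of *Cdc45* at 0.0578 (1.76 ± 0.33), *Mcm2* at 0.0688 (1.20 ± 0.25), *Cdt1* at 0.0877 (3.30 ± 0.72) and *Mcm5* at 0.0914 (1.84 ± 0.41). The largest estimates after *Cdt1* were *Cdc6* at 2.58 ± 0.76 and *Orc1* at 2.41 ± 1.58, and the only negative one was *Rfc3* at -0.26 ± 0.29. The count of calls was 3 without replicate 2 of the HFD-fed wildtype mice and 1 without replicate 2 of the SCD-fed wildtype mice. Over all genes it went from 25 to 101 and to 45 without these mice. The interaction was also positive for 18 of 18 acinar markers, with a median of 1.71 and 16 at an unadjusted p under 0.05, and for 13 of 13 immune markers, with a median of 0.80. With the acinar level as a covariate 17 of the 49 genes and 1312 of all 19137 had an unadjusted p under 0.05, and with the immune level 24 and 1225 had, against 25 and 2145 without a covariate.

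In wildtype islets, 0 of the 49 genes were called between HFD and SCD, where 0.366% of all genes were called. DESeq2 also called 0 of the 49, and 540 of 39752 genes in all. The estimate was higher on HFD for 35 of 49 against 51.1% of all genes, with a median of 0.16. At an unadjusted p under 0.05 there were 2 genes, against 15.2% of all genes. This count was 5 without replicate 1 and 4 without replicate 3 of the SCD mice, 1 without replicate 2 of the SCD mice, and 4 without replicate 3 of the HFD mice. Over all genes it was 2916, and 3483, 2558, 1979 and 2053 without these mice in the same order. *Rrm2* was at 0.943, 1.5 and 1.78 CPM on SCD and at 2.80, 3.24 and 1.80 CPM on HFD (0.87 ± 0.30, edgeR adjusted p = 0.194). *Ccne1* was at 1.21, 1.07 and 1.71 CPM on SCD and at 1.94, 2.01 and 2.24 CPM on HFD (0.63 ± 0.27, adjusted p = 0.285). The HFD mice were above the SCD mice for both, by a narrow margin for *Rrm2*. The largest estimate was *E2f8* at 0.92 ± 1.11 and the smallest was *Pole2* at -0.87 ± 0.59. Immune markers summed to 105.5 to 120.5 CPM on HFD and 168.5 to 264.3 CPM on SCD, with 13 of 13 tested markers lower on HFD, a median log2 fold change of -1.12 and *Ptprc* and *Lyz2* called lower. With the immune level as a covariate 22 of the 49 genes had a higher estimate on HFD, with a median of -0.04.

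In *Pax4* R192H islets, 28 of the 49 genes were called higher on HFD than on SCD, where 9.75% of all genes were called higher, and 0 were called lower, where 5.91% were. All 49 had a higher estimate against 46.4% of all genes, with a median of 1.01 against -0.06. The calls took in 8 of 10 licensing genes, 3 of 6 of helicase activation, 4 of 12 of polymerase, primase and clamp, 2 of 4 of strand binding and joining, 3 of 4 of nucleotide supply, 2 of 4 of chromatin, 3 of 5 E2F and cyclin E genes and 3 of 4 of repair and checkpoint. *Cdc6* was at 0.737, 0.92 and 0.343 CPM on SCD and at 3.36, 4.53 and 7.00 CPM on HFD (2.87 ± 0.55, edgeR adjusted p = 0.00419). *Cdt1* was at 0.229, 0.263 and 0.267 CPM on SCD and at 1.25, 1.64 and 2.68 CPM on HFD (2.86 ± 0.53, adjusted p = 0.00335). These were the largest estimates, and every HFD mouse was above every SCD mouse for both genes. The lowest adjusted p was that of *Mcm2*, at 7.11, 6.55 and 5.61 CPM on SCD and 14.7, 18.4 and 20.7 CPM on HFD (1.48 ± 0.18, adjusted p = 0.000261).

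The other genes called in *Pax4* R192H islets between the diets came from every role. *Exo1* rose by 2.76 ± 0.64, *Clspn* by 2.7 ± 0.57, *Mcm10* by 2.59 ± 0.55, *Mcm5* by 2.33 ± 0.29 and *Uhrf1* by 2.25 ± 0.49 on the log2 scale. *Ccne1* rose by 1.73 ± 0.27, *Fen1* by 1.70 ± 0.31, *Chaf1b* by 1.68 ± 0.44 and *E2f1* by 0.91 ± 0.23. The edgeR adjusted p of these 9 genes were between 0.00035 and 0.0197. The smallest estimates were those of *Orc6* at 0.04 ± 0.14, *Rfc3* at 0.08 ± 0.21 and *Pold3* at 0.21 ± 0.20. Between these groups 23 of 25 G2 and mitosis genes and 18 of 18 acinar markers were called higher as well, and with the acinar level as a covariate the median of the 49 genes was 1.05 and 1 of them was called. Over all genes 74 were called with the covariate and 2996 without it. Duct markers summed to 268.3 to 275.8 CPM on HFD and 153.7 to 174.2 CPM on SCD, with 5 of 8 higher and *Krt7* (0.74 ± 0.12, adjusted p = 0.00142) and *Krt18* (0.92 ± 0.15, adjusted p = 0.0014) called higher, and their part was not tested. Of the 8 β cell markers 5 were higher, with *Ins1*, *Ins2* and *Iapp* called higher and *Slc2a2* called lower, and their part was not tested either. The count of the 49 called was 18 without replicate 3 of the HFD mice, and over all genes it was 1974. This comparison and the genotype comparison on HFD share the HFD-fed *Pax4* R192H mice.

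After *Pax4* deletion, 0 of the 49 genes were called between HFD-fed βiKO and control islets, where 0.0893% of all 20167 genes tested were called. DESeq2 called 0 of the 49, and 251 of 38704 genes in all. The estimate was higher in βiKO for 44 of 49 against 51.5% of all genes, with a median log2 fold change of 0.26 against 0.01. At an unadjusted p under 0.05 there were 10 genes, all higher, against 6.23% of all genes in that direction, and for 13 genes the 3 βiKO mice were all above the 2 controls, against 15.9% of all genes. The 10 became 0 without control replicate 1, 5 without control replicate 2, 3 without βiKO replicate 1 and 6 without βiKO replicate 3. Over all genes the count at this p, in either direction, was 2591, and 1185, 2035, 2626 and 2390 without these mice in turn. *Fen1* had the lowest adjusted p, at 9.84 and 13.3 CPM in control and 23.5, 14.5 and 18.3 CPM in βiKO mice (0.69 ± 0.22, edgeR adjusted p = 0.29, n = 2 and 3). *Mcm10* was at 0.594 and 0.894 CPM in control and 2.01, 1.24 and 1.32 CPM in βiKO mice (1.02 ± 0.38, adjusted p = 0.337). *Pcna* was at 49.2 and 51.9 CPM in control and 66.6, 55.0 and 60.0 CPM in βiKO mice (0.26 ± 0.10, adjusted p = 0.34). These 3 genes did not overlap between the groups. *Uhrf1* had the largest estimate, 1.36 ± 0.62, with values of 0.891 and 1.19 CPM in control and 2.77, 0.876 and 4.41 CPM in βiKO mice, which overlapped. The smallest was *Gins1* at -0.44 ± 0.44.

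The βiKO mice differed among themselves. Replicate 1 had the highest value of the 3 for 37 of the 49 genes, with *Cdc6* at 4.74 CPM against 1.3 and 1.13 CPM in the others and 1.56 and 1.66 CPM in control mice. The mean log2 CPM of the 49 genes was 2.82, 2.20 and 2.51 in βiKO and 2.24 in each control mouse. G2 and mitosis genes followed the same order, with summed levels of 210.5, 84.98 and 139.3 CPM in βiKO and 85.31 and 113.4 CPM in control mice. The acinar sum was 76240, 15590 and 20510 CPM in βiKO and 98220 and 22380 CPM in control mice. Immune markers summed to 264.6, 305.0 and 540.5 CPM in βiKO and 301.6 and 265.7 CPM in control mice, and with their level as a covariate 45 of the 49 genes had a higher estimate and 0 were called. Duct markers summed to 454.6 to 500.6 CPM in βiKO and 358.2 to 371.2 CPM in control mice, with 3 of 8 higher. Endothelial and stromal markers summed to 494.1 to 612.0 CPM in βiKO and 456.6 to 469.3 CPM in control mice, with 9 of 10 higher. Neither sum overlapped between the groups, and the part of these cells was not tested.

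Set side by side, the genes called in HFD-fed *Pax4* R192H islets had smaller estimates in βiKO islets, where none was called. They were picked for passing the threshold in the *Pax4* R192H comparison, which favours larger estimates on that side. *Mcm5* was 1.67 ± 0.28 against HFD-fed wildtype and 0.63 ± 0.27 in βiKO against control, and *Cdc45* was 1.62 ± 0.24 and 0.48 ± 0.30. *Mcm2* was 0.98 ± 0.17 and 0.09 ± 0.19, and *Brca1* was 1.56 ± 0.31 and 0.51 ± 0.33, all on the log2 scale. The tables differ in age, length of HFD and number of mice and were normalised separately, and the difference between the 2 effects was not tested.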

How the data were processed

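Islet RNA from 17 mice was sequenced (paired-end, stranded total RNA). Per the labels and the methods, the authors aligned reads with STAR 2.7.1 to mm10, estimated abundance with RSEM 1.3.3 and summarised it to genes with tximport. The annotation release and the strand setting of the counting are not given in the sources used here. Both deposited tables hold the authors' RSEM expected counts by gene, without normalisation. They were rounded to whole numbers here. Symbols came from GENCODE (GRCm38) by Ensembl identifier.

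Each table was fitted on its own with edgeR 4.0.16 in R 4.3.3 (filterByExpr with a minimum count of 10, TMM, quasi-likelihood test, groups sharing 1 dispersion estimate, Benjamini-Hochberg adjustment over all tested genes). The authors used DESeq2, which is an alternative here (DESeq2 1.42.0). SE is the log2 fold change divided by the square root of F. Log2 CPM used a prior count of 2. Calls needed an adjusted p below 0.05 and a log2 fold change of 0.5 or more in size. The labels call the mice of a group biological replicates and give no pairing. The floor of 3 counts covers counting error only. The scripts were tested on simulated data.

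Named genes are those called, those with the 3 largest and 3 smallest changes, those without overlap at an unadjusted p under 0.05 (at most 8 per comparison), and fixed representatives of each role. The 49 genes, their roles and all lists were chosen with earlier results of these data known. Alternatives were other size factors, filters, a replicate block, DESeq2, marker covariates, library sizes without the 2 largest rows, only the groups compared, and leaving out each mouse. Figures were drawn with matplotlib 3.10.9.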

Additional observations from a re-analysis of the deposited data

How the results depend on the processing

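The count of the 49 genes called in HFD-fed *Pax4* R192H against wildtype islets was 12, where 437 of all 19137 genes were called. It was 25 with no filter on low counts, 26 with DESeq2, 5 with the replicate block and 0 with the acinar covariate. Over all genes these were 1279 of 39845, 918 of 39752, 147 of 19137 and 1 of 19137. Leaving out 1 mouse gave 1 to 13 of the 49 and 93 to 498 of all genes. For the interaction the count was 0, and 13 with no filter, 2 where every sample had to reach 10 counts and 7 with DESeq2. Over all genes it was 25, and 708 of 39845, 80 of 13864 and 314 of 39752 in the same order. When 1 mouse was left out it was 0 to 3 of the 49 and 0 to 101 of all genes. For HFD against SCD in *Pax4* R192H the count of the 49 was 28, and 1 with the acinar covariate, with 18 to 27 when 1 mouse was left out. Over all genes it was 2996, and 74 with that covariate, with 1706 to 2249 when 1 mouse was left out. For βiKO the count of the 49 was 0, and 2 with no filter, where 18 of 20167 and 697 of 38704 genes were called in all. The causes were not tested. The counts of 0 on SCD between genotypes and in wildtype between diets were 0 under every alternative run. Over all genes these alternatives called 0 to 261 on SCD and 1 to 924 in wildtype. Without 1 control, edgeR takes the lone control to vary like the βiKO mice.

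Over 102 values of single genes and 1511 alternatives, 1312 kept direction and side of the threshold, 142 lost the call, 44 gained it and 13 changed sign. On SCD *Rrm2* was -0.12 with the immune covariate, and on HFD *Gins2* was -0.15 with the acinar covariate. When 1 mouse was left out, *Rfc3* ran from -0.021 (without wildtype replicate 1) to 0.14 on HFD. In the interaction *Pold3* ran from -0.029 (without replicate 3 of SCD-fed *Pax4* R192H) to 0.37 and *Orc6* from -0.017 (without replicate 2 of HFD-fed *Pax4* R192H) to 0.18. Between diets in *Pax4* R192H, *Rfc3* ran from -0.043 to 0.30 and *Pold3* from -0.0057 to 0.40, both lowest without SCD replicate 3, and *Orc6* from -0.053 (without HFD replicate 2) to 0.15. In βiKO, *E2f1* was 0.073 with the replicate block, 0.0004 with the acinar and 0.052 with the immune covariate, and ran from -0.33 to 0.076 when 1 mouse was left out. With the immune covariate the median of the 49 was -0.28 on SCD and 1.29 in the interaction.

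Mice with the same replicate number did not deviate together: correlations of their deviations from the group means were -0.296 to 0.193 over 18 pairs in the first table, and 0.0382 and 0.0729 in the second. The numbers were therefore not treated as pairs. With the block the count for HFD against SCD in *Pax4* R192H was 24 of the 49 and 2346 of all genes. With 2 or 3 mice per group and medians of 4 to 1921 counts per gene in the first table, the low genes, such as *Orc1* and *E2f8*, limit what can be detected.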
